A study of Homo sapiens with 8 samples.

Results

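The distal TAZ sites that were called only after 72 h of induction were described here. TAZ binding was measured by ChIP-seq, which sequences the DNA recovered with a protein by an antibody, in MCF10A, a human line of mammary epithelium that is not transformed, transduced with TAZ-4SA, a constitutively active TAZ, under a doxycycline (Dox) inducible promoter. Each of the 4 conditions had 1 list of peaks: no Dox, and 0.05 µg/ml Dox over 24, 48 and 72 h, and all 4 carried the transgene. A condition had 1 TAZ library and 1 IgG library, without replicates, and times can therefore be compared only as single libraries. The antibody was raised to TAZ, and the induced and the endogenous protein cannot be told apart in these lists. Whether the transduced cells were 1 clone is not given in the sources used here.

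A late distal site was a 72 h peak that overlapped no peak of the other 3 lists, had its summit over 3 kb from the transcription start site (TSS) of every annotated transcript and lay outside exons, on chromosomes 1 to 22 and X of hg38. The 72 h list held 38667 peaks, of which 13068 were late distal sites (33.8%, 95% exact interval 33.3 to 34.3). They were set beside 7989 earlier-called distal sites, which passed the same position rule but overlapped a peak of an earlier list, and beside 12705 late promoter sites, which were called at 72 h only and lay within 3 kb of a TSS. All 3 groups were chosen by the calls in the 4 lists and by position, and by no motif or gene. In the background, 67.9% of all 72 h peaks on these chromosomes and 62.1% of the distal ones were called at 72 h only, and nothing is read from those shares. Intervals given below are exact 95% binomial intervals, or Newcombe intervals of a difference, and cover counting over the sites of 1 library only. Neighbouring sites are not independent of each other.

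TAZ is a co-activator that the kinases of the Hippo pathway keep out of the nucleus. It has no DNA-binding domain and is brought to DNA by partners, foremost the TEAD factors, and many of its known sites are enhancers far from promoters that also hold sites for AP-1, the dimers of FOS and JUN proteins. RUNX factors are further known partners of TAZ.

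What such sites look like is shown by some of the strongest, taken by fold enrichment among sites with a TEAD consensus (ACATTCC or GCATTCC, either strand), an AP-1 consensus (TGACTCA, either strand), both or neither within 100 bp of the summit. Each line gives the summit with 50 bp to each side, on the plus strand of hg38, and is named by the protein-coding gene with the nearest TSS. Capitals mark the TEAD and the AP-1 consensus.
The first 3 held TEAD only, at chr11:102268619-102268719, chr18:45324648-45324748 and chr7:461553-461653:
YAP1: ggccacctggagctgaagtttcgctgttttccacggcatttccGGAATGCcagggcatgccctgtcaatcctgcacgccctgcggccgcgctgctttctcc
SLC14A2: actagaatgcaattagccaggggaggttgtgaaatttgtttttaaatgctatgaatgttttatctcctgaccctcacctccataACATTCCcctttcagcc
PDGFA: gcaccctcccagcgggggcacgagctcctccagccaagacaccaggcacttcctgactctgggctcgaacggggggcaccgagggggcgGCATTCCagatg
The next 2 held AP-1 only, at chr12:132524570-132524670 and chr10:97889019-97889119:
FBRSL1: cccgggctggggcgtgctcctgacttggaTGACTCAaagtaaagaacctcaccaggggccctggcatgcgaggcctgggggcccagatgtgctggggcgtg
CRTAC1: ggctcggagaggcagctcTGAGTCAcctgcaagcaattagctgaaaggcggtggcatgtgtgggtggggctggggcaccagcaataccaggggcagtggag
In the next both were found, at chr5:52783496-52783596, and its AP-1 consensus lay outside the printed stretch:
ITGA1: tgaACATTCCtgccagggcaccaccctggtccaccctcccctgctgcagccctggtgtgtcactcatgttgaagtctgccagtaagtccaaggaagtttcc
The last 2 held neither, at chr6:36369684-36369784 and chr10:3926846-3926946:
ETV7: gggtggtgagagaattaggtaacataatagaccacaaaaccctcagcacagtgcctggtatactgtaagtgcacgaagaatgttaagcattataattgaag
KLF6: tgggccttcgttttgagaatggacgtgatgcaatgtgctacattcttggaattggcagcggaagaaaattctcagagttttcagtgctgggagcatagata

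The fold enrichments of these sites were 28.1 near YAP1, 27.6 in SLC14A2 and 27 near PDGFA for TEAD only, 25.6 in FBRSL1 and 25 in CRTAC1 for AP-1 only, 26.3 near ITGA1 for both, and 29.2 in ETV7 and 27.1 near KLF6 for neither. Some of the strongest sites thus held either consensus, both or neither. They were picked by strength within each group, so their similar values are not read as a comparison of the groups. The strongest AP-1 only site, in AGAP1 with a fold enrichment of 29.6, is not printed because its consensus lay outside the printed width.

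Most late distal sites were weaker than the earlier-called ones. Their fold enrichment, the ChIP signal at the summit over the local background as the authors' peak caller gave it, had a median of 6.19 (quartiles 4.83 and 8.23) and ran between 2.31 and 43.4. The earlier-called distal sites had a median of 12.9 at 72 h (quartiles 8.75 and 19.2), and the late promoter sites one of 5.89. A fold enrichment of at least 10 was reached by 1748 late distal sites (13.4%) and by 5330 earlier-called sites (66.7%), and one of at least 20 by 61 late distal sites (0.467%) and 1808 earlier-called sites (22.6%). Since a stronger site is called more readily at any time, the rule that chose the sites bears on this comparison, and it is given as a description. Among earlier-called sites, the median at 72 h was 21.6 for the 507 first called without Dox, 20.6 for the 1361 first called at 24 h and 11.6 for the 6121 first called at 48 h.

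**Figure D1:**
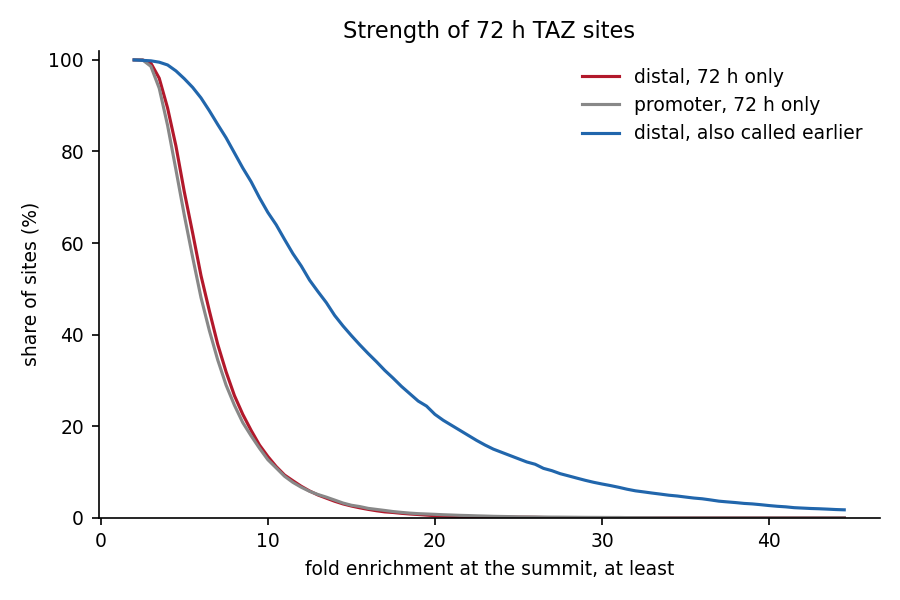
Share of sites (%, y axis) whose fold enrichment at 72 h reached at least the value on the x axis, for late distal sites, late promoter sites and earlier-called distal sites. The curves of both 72 h only groups lie close together, and at 10 the late distal curve is at 13.4% and the earlier-called curve at 66.7%.

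The late distal sites rested on a median of 25 ChIP fragments over the summit (quartiles 19 and 34), and a single count of 25 has a 95% Poisson interval of 16.2 to 36.9. Their median width was 634 bp, against 1036 bp for the earlier-called distal sites. The median −log10 q was 12.2, with 234 sites (1.79%) under 3 and 5185 (39.7%) under 10. Read totals are not given in the lists, so depth was read from the lowest background of each list, with 2.01 fragments at 72 h and, in time order, 1.49 (no Dox), 1.42 (24 h) and 2.84 (48 h). The 48 h list was therefore the deepest by this measure. The bar set for each earlier list was its lowest −log10 p, that of its weakest call. If each late distal site had kept its 72 h enrichment over the scaled background, 11845 of 13068 (90.6%) would have held enough fragments to reach it without Dox. The same held for 11621 (88.9%) at 24 h and 13068 (100.0%) at 48 h. The median expected fragments were 18 without Dox, 17 at 24 h and 35 at 48 h, against 11, 11 and 15 needed. At least 2 times the needed fragments were expected at 29.8%, 26.7% and 64.7% of the sites. This calculation holds the efficiency of the immunoprecipitation equal in all libraries, which was not tested. It also starts from the 72 h fragments that helped to choose the sites, so the expected fragments may be too high. For the deeper 48 h list, a pass by sites already called at 72 h was close to fixed in advance, and nothing is read from that share. A site absent from an earlier list was thus not called there, and was not shown to be unbound.

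The limits of the rule fell among ordinary sites. The late distal sites closest to a TSS lay 3001 bp from one near ANKK1 (fold enrichment 9.50), 3004 bp near OTOA (5.48) and 3004 bp near SVEP1 (7.35), and 72 h only peaks just inside the limit lay 3000 bp from a TSS near JADE2 (9.98) and CD9 (5.98) and 2998 bp near DUSP4 (8.42). The late distal sites closest to an earlier peak were 33 bp away near GNG4 (4.38), 46 bp near HGF (5.99) and 127 bp near YAP1 (4.23). Earlier-called sites with the smallest overlap shared 4 bp near NRP1 (8.42), 43 bp near NFIA (3.56) and 59 bp near SLC38A2 (2.94).

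The TEAD consensus was the most frequent of the 18 motifs searched. It was found in 3976 of the 13068 late distal windows (30.4%, 29.6 to 31.2), against 5.30% of equally wide flanks centred 1000 bp from the summit. The share was 42.6% at earlier-called distal sites, a difference of -12.2 percentage points (-13.6 to -10.9), and 13.9% at late promoter sites, a difference of 16.5 points (15.5 to 17.5). Among 23400 distal positions placed every 100 kb along the genome, 5.75% held it. Of the earlier-called sites, those first called without Dox held it in 47.7%, those first called at 24 h in 50.6% and those first called at 48 h in 40.5%.

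The AP-1 consensus was as frequent at late distal sites as at earlier-called ones within the error of counting. It was found in 20.9% of late distal windows (20.2 to 21.7), in 3.21% of their flanks and in 20.7% of earlier-called windows, a difference of 0.203 points (-0.933 to 1.33). Late promoter sites held it in 8.72% and the regular positions in 3.07%. The RUNX consensus (TGTGGTT) was found in 7.76% of late distal windows (7.31 to 8.23), in 3.47% of their flanks, in 11% of earlier-called windows and in 3.77% of regular positions, and the late distal share was lower than the earlier-called one by 3.22 points (difference -3.22, -4.05 to -2.40).

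The KLF/SP consensus (GGGCGGG or GGGTGGG), bound by factors of GC-rich promoters, was found in 12.5% of late distal windows, 6.31% of flanks, 9.30% of earlier-called windows and 38.9% of late promoter windows. The ETS consensus (CCGGAAG) was found in 1.23% of late distal windows, 0.688% of earlier-called windows and 9.74% of late promoter windows. Both were thus more frequent at late distal than at all earlier-called distal sites, by 3.23 points (2.37 to 4.07) and 0.544 points (0.273 to 0.802). This did not hold against the 507 sites first called without Dox, at 20.5% for KLF/SP and 2.37% for ETS. Sites first called at 24 h had 7.35% and 0.661%, and those first called at 48 h had 8.81% and 0.555%. These 2 motifs were not compared at like strength. The median GC content of the windows was 46.3% at late distal sites, 43.8% at earlier-called sites, 63.7% at late promoter sites and 39.3% at the regular positions, and its part in these shares was not tested. The STAT consensus (TTCCNGGAA) was found in 1.58% of late distal windows, 0.482% of flanks and 2.10% of earlier-called windows. The GRE, the element bound by the glucocorticoid receptor, was found in 0.803% of late distal windows, 0.298% of flanks and 1.46% of earlier-called windows. Differences to the earlier-called sites were -0.519 points (-0.912 to -0.148) for STAT and -0.661 points (-0.981 to -0.367) for GRE.

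The CEBP consensus (TTGCGCAA, TTGCACAA or TTGCATCA) was found in 5.04% of late distal windows, 1.29% of flanks and 4.54% of earlier-called windows, and the AP-2 consensus (GCCNNNGGC) in 7.47%, 3.85% and 7.03%. CREB (TGACGTCA or TGACGCA) stood at 1.34%, 0.471% and 1.53%. For these 3 factors the late distal share exceeded that of the flanks, and the interval of its difference to the earlier-called sites held 0. The p53/p63 motif was searched as the loose pattern RRRCWWGYYY (R for A or G, W for A or T, Y for C or T). It was found in 5.97% of late distal windows, 5.57% of flanks and 5.14% of regular positions. That of GRHL (AACCGGTT, AACTGGTT or AACCAGTT) was found in 0.666% of late distal windows and 0.624% of flanks. The searched motifs of p63 and GRHL, factors of basal and of epithelial cells, were thus little more frequent at summits than beside them. A stricter p63 pattern was not searched, so a lack of p63 sites is not shown. FOX (TGTTTAC) stood at 3.72% and 2.73%, CTCF (CCACNAGGG) at 0.849% and 0.517%, NF-kB at 0.214% and 0.0612%, and NFI at 0.0842% and 0.0230%. YY1 (AAGATGG) and SRF were less frequent at the summits than in the flanks, at 2.95% and 4.03% for YY1 and 0.987% and 1.27% for SRF. A CREB, AP-1 or CEBP match can share bases with one of another motif, and each motif was counted on its own.

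**Figure D2:**
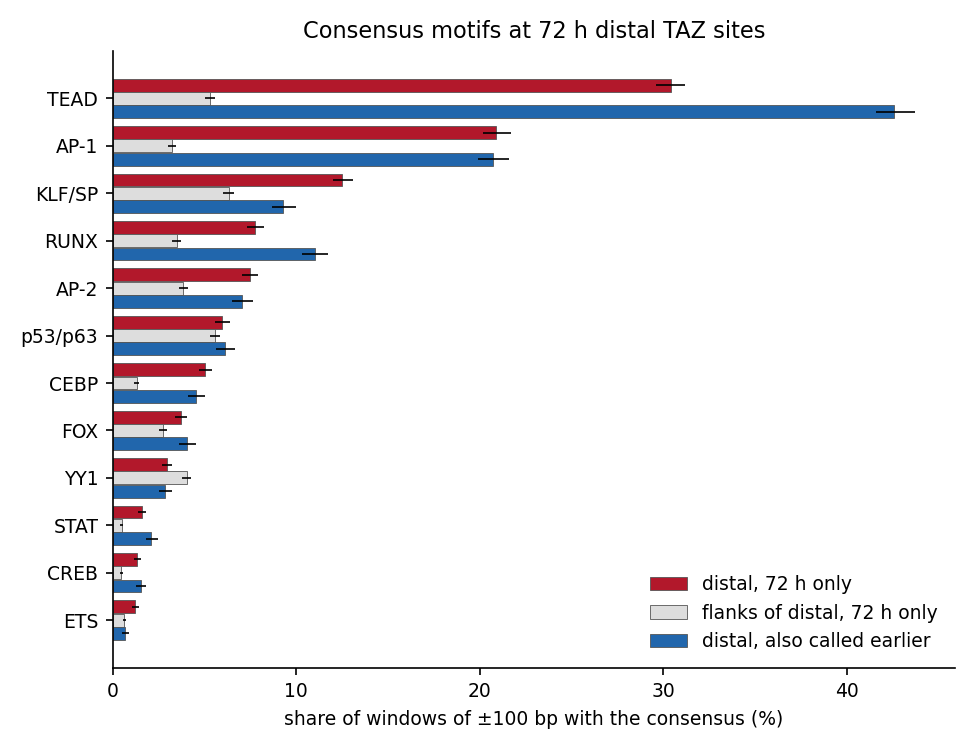
Share of windows of 100 bp to each side of the summit with a consensus (%, x axis) for 12 motifs at late distal sites, in the flanks of those sites and at earlier-called distal sites, with 95% exact intervals as bars. TEAD stands at 30.4%, 5.30% and 42.6%, and AP-1 at 20.9%, 3.21% and 20.7%.

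Among the late distal sites the TEAD share was higher in each class of strength than in the class below it, while the AP-1 share was lowest in the strongest class. The TEAD share was 19% for fold enrichments under 5, 29.7% for 5 to 7, 36.6% for 7 to 10, 44% for 10 to 15 and 51.3% for 15 and over. At earlier-called sites in the same classes it was 27.5%, 29.9%, 34.6%, 40.5% and 52.7%. The late distal share was thus lower in the weakest class, with a difference of -8.49 points (-13.7 to -3.74), and higher in the class of 10 to 15, by 3.54 points (0.222 to 6.85). In the other 3 classes the interval of the difference held 0, so that the gap of -12.2 points over all sites was not seen between sites of like strength from 5 upwards.

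The AP-1 share of late distal sites was 20.7% under 5, 22.9% for 5 to 7, 20.1% for 7 to 10, 19.1% for 10 to 15 and 13.9% for 15 and over, and in each class the earlier-called share was higher, at 24.4%, 26.6%, 23.6%, 22.4% and 16.4%. The interval of the difference excluded 0 in the 3 middle classes. The RUNX share of late distal sites hardly moved with strength, at 8.10%, 7.70%, 7.49%, 7.65% and 7.72%, while earlier-called sites had 9.88%, 9.88%, 12.8%, 11.6% and 10.0%. The RUNX interval of the difference, too, excluded 0 in the 3 middle classes, with differences of -2.17 (-4.56 to -0.117), -5.34 (-7.31 to -3.49) and -3.99 points (-5.90 to -2.01). Between a fold enrichment of 5 and 15, late distal sites thus held AP-1 and RUNX less often than earlier-called sites in each class, whereas no TEAD interval lay below 0 there.

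**Figure D3:**
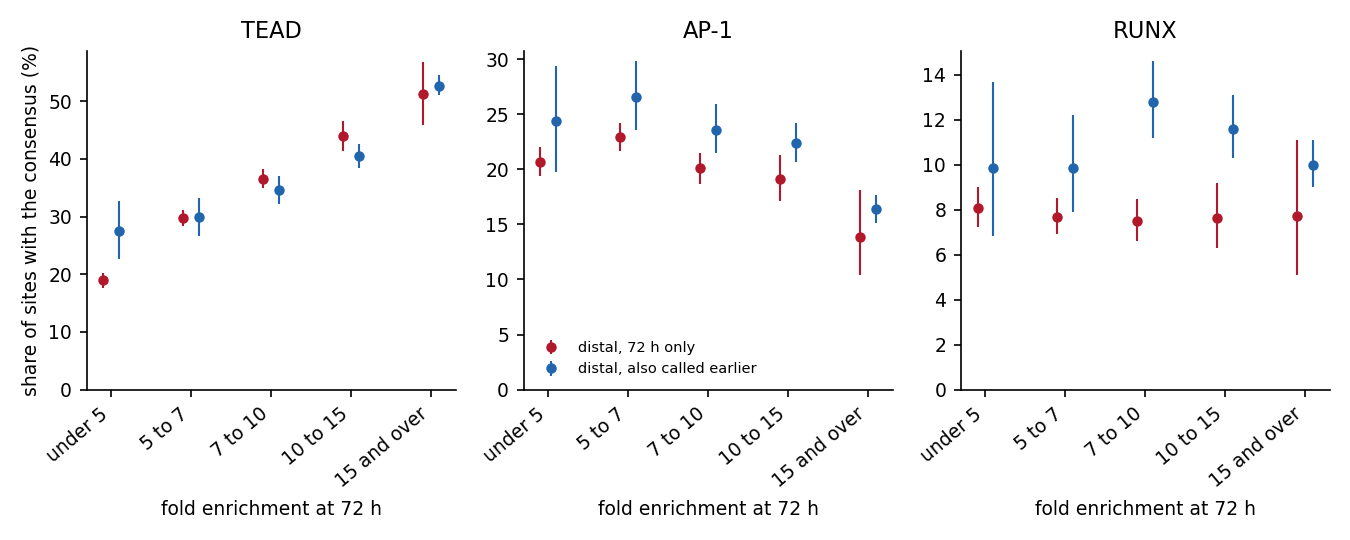
Share of sites with the TEAD, AP-1 or RUNX consensus (%, y axes, with 95% exact intervals) in 5 classes of fold enrichment at 72 h (x axes), late distal sites left of earlier-called distal sites. The TEAD share of late distal sites is 19% in the lowest class and 51.3% in the highest, and that of AP-1 is 20.7% and 13.9%.

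Among sites with a match within 100 bp of the summit, the TEAD consensus sat closer to it than AP-1 or RUNX did. Matches farther out were left out of the medians, which the cut at 100 bp therefore lowers. The distance of the TEAD consensus to the summit had a median of 27 bp at late distal sites and 23 bp at earlier-called sites. The AP-1 consensus lay farther out, with medians of 40 bp and 41 bp, and so did RUNX, with 41 bp and 39 bp. In bins of 20 bp, TEAD was found at 6.36% of late distal sites just past the summit and at 0.429% of them at the far edge, 380 to 400 bp before it.

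**Figure D4:**
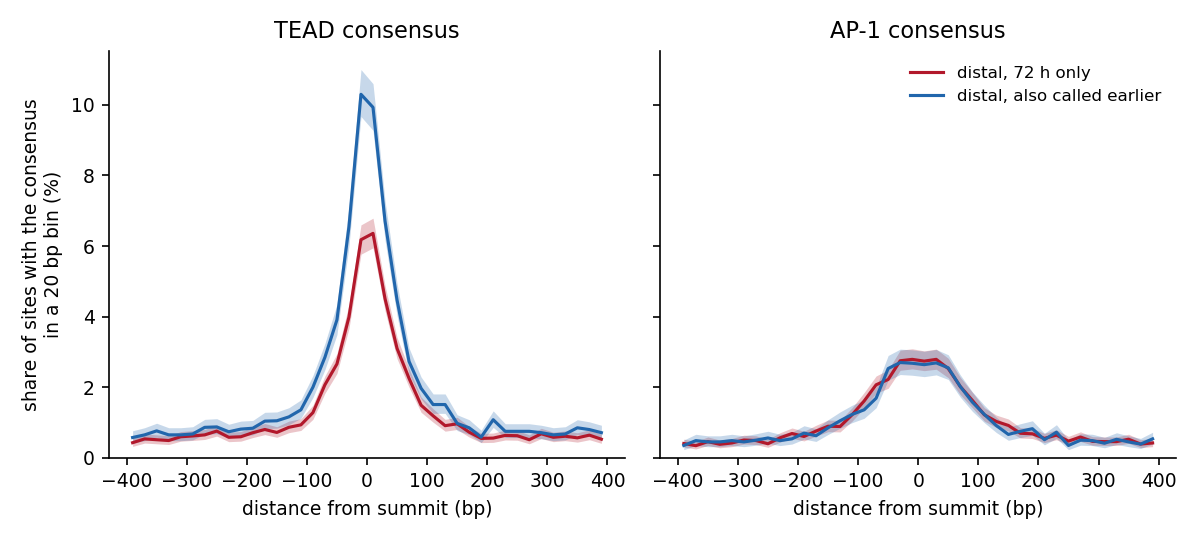
Share of sites with the TEAD (left) or AP-1 (right) consensus in 20 bp bins (%, y axis) against the distance from the summit (bp, x axis), with shaded 95% exact intervals, for late distal and earlier-called distal sites. TEAD is higher at the centre at earlier-called sites, and both AP-1 curves run together.

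More than 1 in 2 late distal sites held neither consensus. TEAD without AP-1 was found at 3430 sites (26.2%), AP-1 without TEAD at 2191 (16.8%), both at 546 (4.18%, 3.84 to 4.54) and neither at 6901 (52.8%). If the motifs fell independently of each other, both would be expected in 6.37% of the windows. At earlier-called distal sites the shares were 35.6%, 13.7%, 7.03% and 43.6%, with 8.85% expected for both, and 79.0% of late promoter sites held neither. A second TEAD match was found at 422 late distal sites (3.23%) and at 7.82% of earlier-called sites. Median fold enrichments of late distal sites were 6.99 for TEAD only, 5.85 for AP-1 only, 6.83 for both and 5.88 for neither. At the 546 late distal sites with both, the motifs lay a median of 39 bp apart, and 147 pairs (26.9%) lay within 20 bp, against a median of 42 bp and 26.2% at earlier-called sites.

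Sites far from any earlier peak held TEAD more often than those close to one. The share was 26.4% (24.9 to 28) for the 3034 late distal sites within 10 kb of an earlier peak, 30.7% (29.6 to 31.8) for the 6519 at 10 to 100 kb, and 33.4% (31.8 to 35.0) for the 3515 farther away. AP-1 stood at 20.0%, 20.6% and 22.4%, and the median fold enrichment at 5.98, 6.18 and 6.37. The median distance of a late distal site to an earlier peak was 37541 bp, against 28767 bp between earlier-called sites and the next other earlier peak and 135418 bp for the regular positions. Within 1 kb of an earlier peak lay 218 late distal sites (1.67%). The rule had already left out every 72 h peak that overlapped an earlier one. A low share was therefore largely set in advance, and nothing is read from it about edges of earlier sites.

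In position the late distal sites resembled the earlier-called distal sites more than the regular positions. Introns held 8048 late distal sites (61.6%, 60.7 to 62.4), 61.3% of earlier-called sites and 55.5% of regular positions, and first introns of canonical protein-coding transcripts held 14.1%, 13.5% and 8.34%. The median distance to a TSS was 14004 bp, against 15451 bp for earlier-called sites and 21208 bp for regular positions. A protein-coding TSS was over 100 kb away for 21.9% of late distal sites, 23.5% of earlier-called sites and 40.8% of regular positions. By chromosome, the number of late distal sites per Mb lay between 2.42 on the X and 5.56 on chromosome 20, and 72 h only calls made up between 57.8% (chromosome 8) and 69.6% (chromosome 16) of distal sites.

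The 20 strongest late distal sites had fold enrichments between 24.3 and 43.4. The top one, at chr21:6369245-6372387 with a fold enrichment of 43.4 and 158 fragments, lay on the short arm of chromosome 21, 4151579 bp from the nearest protein-coding TSS, that of TPTE, and 5 of 6 stretches of 32 bp around its summit occur again elsewhere in hg38, so that reads there may be shared between copies. The same holds for 5 of 6 stretches at the SNX6 site and 4 of 6 at the ANKRD18A site, and 6 of the 20 sites had at least 1 such stretch. Of the 20 sites, 15 lay in introns, 11 held TEAD, 5 held AP-1 and 6 held neither, and 2 lay within 10 kb of an earlier peak. The site near YAP1 (chr11:102268053-102269218, 135 fragments) lay 41696 bp from a TSS of that gene, the paralogue of TAZ. The site near KLF6, an early-response zinc finger factor, lay 141615 bp from its TSS in an intron of LINC02660, and the PDGFA site lay 51864 bp from the TSS of this growth factor gene and held 2 TEAD matches. The site near ITGA1, the integrin α1 collagen receptor, lay 4370 bp from its TSS in an intron of PELO-AS1. The others were nearest to TMEM64, NKX2-6, ANKRD18A, DAGLA, SNX6, MDGA1, GPAT3, MYEOV, MRAS and KIF26A, besides AGAP1, ETV7, SLC14A2, FBRSL1 and CRTAC1 named above.

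Each site within 100 kb of a protein-coding TSS was given to the nearest such gene, which says nothing about the gene it acts on. In this way 10211 late distal sites fell to 5384 genes, 27.0% of 19962 protein-coding genes. For 3027 of these genes no earlier-called distal site was assigned, and 320 genes had 5 or more late distal sites. Peaks at promoters or in exons are not in these counts. A gene without an earlier-called distal site may therefore still have had an earlier peak. The share was higher in longer genes: 13.2% of genes under 20 kb, 23.2% of those of 20 to 50 kb, 35.1% of those of 50 to 100 kb, 50.6% of those of 100 to 200 kb and 64.8% of those over 200 kb had a late distal site. These shares are the background for the gene lists below, whose differences from it were not tested. At 72 h, the promoter of the assigned gene had a peak called only then for 46.9% of these sites, one called earlier for 27.5% and none for 25.5%, against 47.6%, 30.0% and 22.4% for earlier-called sites and 42.6%, 16% and 41.4% over all protein-coding genes.

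RAD51B, a gene of homologous recombination, had the most late distal sites, 14, with 5 earlier-called ones, and 9 of the 14 held TEAD. EXT1 (heparan sulfate synthesis) had 13 late distal and 13 earlier-called sites, and PARD3, a polarity protein of epithelial junctions, had 13 and 6. FOXP1, a forkhead repressor, had 11 late distal sites and no earlier-called distal one, although its promoter had a peak called earlier. All 11 lay in introns of the gene, with fold enrichments between 3.91 and 17.0. Of these, 2 held TEAD and 3 held AP-1. PRKAG2, which encodes a subunit of the energy sensor AMPK, and PRKCH, a protein kinase C gene, had 12 each, with 8 and 5 earlier-called sites, and NAV2, PTPN14, RBMS1, SMURF2 and TNS3 had 11 each, with 9, 7, 5, 6 and 6. ADCY9, ASAP1, GLI3 and RUNX1 had 10 each, with 3, 9, 3 and 6. In all 17 genes had 10 or more, and the 15 leave out TLN2 and UBASH3B, which were tied at 10 and are named after their values were seen. Not all assigned sites lay within the gene: this held for 4 of 11 at SMURF2, which encodes a ubiquitin ligase that acts on SMAD proteins and TGF-beta receptors, 7 of 10 at ADCY9, 10 of 11 at RBMS1, 12 of 13 at EXT1 and 11 of 11 at PTPN14. With sites outside the gene counted too, these 5 genes had 9.16, 6.13, 4.96, 4.10 and 5.40 assigned sites per 100 kb of gene. They were the densest of the 15. Long genes stood lower by this measure: RAD51B (910.4 kb) had 1.54, PARD3 (705.8 kb) 1.84, FOXP1 (629.3 kb) 1.75, NAV2 (770.9 kb) 1.43 and RUNX1 (1217 kb) 0.822. The ranking by count was not corrected for gene length.

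**Figure D5:**
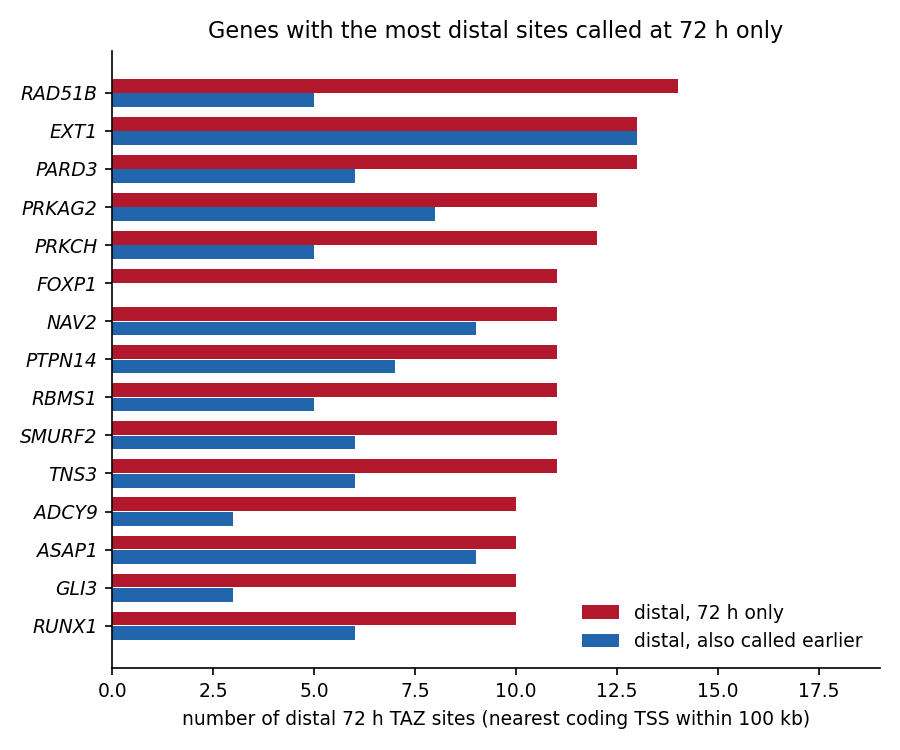
Number of late distal sites and of earlier-called distal sites (x axis) for 15 protein-coding genes (y axis) with the most late distal sites, 2 further genes being tied at 10. RAD51B stands first with 14 and 5, and FOXP1 has 11 and 0. Peaks at promoters are not counted.

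The YAP/TAZ target signature, genes known to answer to both co-activators in many cells, had late distal sites at 19 of 22 genes (86.4%, against 27.0% of all protein-coding genes and 23.2% of those of 20 to 50 kb, where the list's median length of 44.4 kb lies), 68 sites in all, and 79 earlier-called ones. PTPN14, a phosphatase that restrains YAP, and ASAP1 led with 11 and 10 sites, followed by F3 with 6 and TGFB2 with 5. MYOF, CRIM1 and GADD45A had 4 each, AMOTL2, LATS2, NT5E and RBMS3 had 3 each, CCN1, ANKRD1, CCDC80 and NUAK2 had 2 each, and FJX1, FOXF2, DOCK5 and ARHGEF17 had 1 each. The strongest was an intronic site of LINC02004 assigned to AMOTL2, an angiomotin that binds YAP and TAZ, with a fold enrichment of 15 and neither motif. At CCN1, a matricellular target, the late sites had 5.31 and 4.12, and at ANKRD1 they had 6.70 and 4.62. CCN2, the sister gene of CCN1, had no late distal site and 1 earlier-called one, and AXL and IGFBP3 had none of either. Among the 19 genes, ARHGEF17 alone had a late distal site (7.10) and no earlier-called one. Over all protein-coding genes, 2357 of the 5384 with late distal sites also had an earlier-called one.

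Of the genes of TAZ's foremost DNA-binding partners, 3 of the 4 TEAD genes had late distal sites, against 27.0% of all protein-coding genes. The list's median length was 52.4 kb, and 35.1% of all genes of 50 to 100 kb had a late distal site. TEAD1 is longer, at 270.3 kb, and 64.8% of all genes over 200 kb had one. Of the TEAD genes, TEAD1 had 6 (fold enrichments 7.99, 7.13, 6.08, 4.81, 4.78 and 3.74) and 4 earlier-called sites, TEAD3 had 1 (3.31) and 1, and TEAD2 had none of either. TEAD4 had 2 and no earlier-called site, one of 13.9 at chr12:3035010-3035784 with neither motif and one of 4.64 with both.

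In the AP-1 family 7 of 12 genes (58.3%, against 27.0% of all protein-coding genes and 13.2% of those under 20 kb, with a median length of 8.80 kb in the list) had late distal sites, 21 in all, with 6 earlier-called ones. FOS had 4 late distal sites and no earlier-called one: the strongest, 18.6 at chr14:75234116-75235193, held AP-1 and lay 44095 bp from the TSS, and the others had 8.34, 8.20 and 6.18 and neither motif. JDP2, which encodes a repressor of AP-1, and BATF, an AP-1 factor best known in lymphocytes, follow FOS on chromosome 14 and had 2 (6.11 and 3.99) and 3 (6.57, 4.33 and 4.08), with 1 and 0 earlier-called sites. FOSL2, a FOS relative common in epithelia, had 4 late distal sites of 14.6, 12.2, 6.81 and 5.31 and no earlier-called distal one. The strongest of these, at chr2:28386847-28387975 in an intron of FOSL2-AS1, held both motifs and lay 2402 bp from an earlier peak. JUN had 6, led by one of 16.5 at chr1:58824712-58825641 in LINC01135, and 2 earlier-called ones, and 3 of the 6 held AP-1. BATF3 and ATF3 had 1 each (4.39 and 3.72), and FOSB, FOSL1, JUNB, JUND and BATF2 had none.

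Upstream, 18 of 30 genes of the Hippo pathway (60%) had late distal sites, 63 in all with 65 earlier-called ones. The list's median length was 117.4 kb, and 50.6% of all genes of 100 to 200 kb had a late distal site. After PTPN14 came FAT1, an atypical cadherin, with 7 (11.8 the strongest). WWC1, the scaffold KIBRA, had 4 (10.9 the strongest), as had FRMD6, AMOTL1 and MAP4K4. YAP1 had 3, of 28.1, 4.91 and 4.23, and 1 earlier-called site.

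Genes of the epithelial and mesenchymal states both had such sites, and their counts stand against 27.0% of all protein-coding genes and, for genes of 20 to 50 and 50 to 100 kb, 23.2% and 35.1%. Of 24 genes of the epithelial-mesenchymal transition and mesenchyme, 15 (62.5%) had 29 late distal sites and 12 earlier-called ones. SNAI2, a repressor of epithelial genes, had 1 of 19.3 with TEAD, 56329 bp from its TSS, and TWIST2, FN1, SPARC and TNC had 3 each, led by 12.6, 9.85, 7.54 and 6.60. Of 26 junction genes, 16 (61.5%) had 35 late distal and 29 earlier-called sites, among them PKP1 (6 late and 3 earlier-called), CDH1 (4 and 2) and CTNNA1 (4 and 3), and the strongest, 15.9 with TEAD, lay in TJP3. Basal mammary markers had late distal sites at 6 of 12 genes (50%), led by EGFR (9, the strongest 13.6), TP63 (7, 7.69) and LAMA3 (3, 11.4). Luminal markers had them at 9 of 12 genes (75%), led by GATA3 (4, 12.4) and ESR1 (3, 7.75), with AREG (10.5) and KRT8 (5.06) at 2 each. Median lengths of these 4 lists were 49.4, 44.5, 57.6 and 38.1 kb.

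In the signalling lists a few genes held many of the sites, and the median gene of the EGFR and TGF-beta lists had 1. Of 13 genes of the EGFR family and its ligands (median length 42.5 kb), 12 (92.3%, against 27.0% of all protein-coding genes) had a late distal site, 35 in all with 30 earlier-called ones: EGFR had 9, the ligand genes NRG1 and TGFA had 8 and 6, and the strongest reached 14.8 at NRG1. Of 24 TGF-beta and SMAD genes (85.2 kb), 15 (62.5%, against 35.1% of all genes of 50 to 100 kb) had 51 in all with 45 earlier-called ones. After SMURF2 with 11, SMAD3, a signal transducer, had 8 and the inhibitor SMAD7 had 7, and the strongest, 13.1 with TEAD, lay in ACVR1B. Integrin and laminin genes (82.2 kb) had late distal sites at 13 of 18 (72.2%, against the same 35.1%). ITGA1 and ITGB6 led with 5 each, and ITGB5 and LAMB1 had 4 each. Actin cytoskeleton genes (104.7 kb) had them at 17 of 26 (65.4%, against 50.6% of all genes of 100 to 200 kb), among them PALLD with 8 and MYH9 with 6, and the strongest, 23.7, was assigned to ACTB. Of 24 NF-kB and TNF genes (14.4 kb), 12 (50%, against 13.2% of all genes under 20 kb) had 20 late distal sites and 12 earlier-called ones. TNFAIP3 (4) and CCL20 (3) came first, with NFKBIA, TRAF1 and CXCL8 at 2 each, and the strongest site was one of 18.4 at the chemokine gene CCL20.

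Among markers of tissues that the culture should not hold, late distal sites were assigned to 2 of 10 liver genes, 3 of 10 neuron genes, 2 of 10 blood genes and 2 of 10 muscle genes, near or below the 27.0% over all protein-coding genes. Median lengths of these lists were 25.9, 51.5, 17.6 and 20.9 kb, and their shares lay near those of all genes of like length, 13.2% under 20 kb, 23.2% for 20 to 50 kb and 35.1% for 50 to 100 kb. The part of gene length in the counts of any list was not tested.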

How the data were processed

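TAZ ChIP-seq of MCF10A cells without Dox and after 24, 48 and 72 h of Dox was described from 4 deposited peak lists, 1 per condition. The labels give TAZ and IgG libraries of 1 condition the same list, and whether IgG was the control of the peak caller is not given in the sources used here. According to the study's methods and the submitters' processing notes, the authors mapped trimmed reads to hg38 with BWA and called peaks with MACS2 (false discovery rate 0.01), of which no source used here gives the versions. The deposited lists hold the fold enrichment as a ratio, with a pseudocount of 1, and −log10 of the p-value and q-value, all computed by the authors. No library was normalised to another.

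Fragments and background at each summit were solved from its fold enrichment and Poisson p-value, which returned the deposited value for 99.3% to 99.9% of the peaks of a list within 0.003; peaks with a −log10 p over 290 could not be solved. An overlap of 1 bp or more made a site shared, and summits were annotated with GENCODE version 44. Motifs were searched on both strands within 100 bp of summits, in equally wide flanks at 1000 bp and at 23400 distal positions placed every 100 kb. Overlap, solving and motif search were tested on simulated data. Repeats were counted as 32 bp stretches, 6 per site, that occur again in hg38; the share of annotated repeats was not analysed here. Shares have exact 95% intervals, and no p-value was computed because each condition had 1 library.

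Named were the 20 strongest sites, the 15 genes with most sites (2 tied genes left out), all genes of the YAP/TAZ signature, TEAD and AP-1 lists, and for the other lists the 3 genes with most sites and the strongest site. Genes tied with the third were added after their values were seen. Sequences were taken from the 3 strongest sites of each motif class outside chromosome 8. Some sites and genes that this rule names are not reported here. The sites, the 17 gene lists and the motifs were chosen with earlier results of these data known. Alternatives were the q threshold, the overlap, the distance to a TSS, the window and the motif strictness. Python 3.11.15, numpy 2.4.6, pandas 2.3.3, scipy 1.17.1, pysam 0.24.0 and matplotlib 3.10.9 were used.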

Additional observations from a re-analysis of the deposited data

How the results depend on the processing

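The number of late distal sites was 7883 at a −log10 q of at least 10 and 8185 over 10 kb from a TSS, and stayed within 1.5 times 13068 under the other alternatives. The median fold enrichment was 6.51 and 7.65 at a −log10 q of at least 5 and 10, and 6.59 where sharing needed 50% of both intervals. Under these 3 settings the TEAD share was 32.1%, 36.3% and 31.9%. With windows of 50 and 200 bp to each side and over the whole interval, the TEAD share was 22.3%, 36.3% and 43.3% and the AP-1 share 12.4%, 28% and 34.8%. A 6-letter TEAD core gave 39.4%, and AP-1 with any centre base 26.9%. The intron share was 64.1% over 1 kb and 56.7% over 10 kb from a TSS. Leaving out the sites in repeated sequence, chosen after seeing the data, gave an AP-1 share of 21.8%. The other 29 of the values moved by less than the counting interval, or 1.5 times for counts. Windows were lengthened or shortened by construction, and for the other settings the cause was not tested. No paired analysis was possible because each condition had 1 TAZ library and the results come from no test. A single library per time, and a median of 25 fragments per site, limit every value.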

Other observations

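The TEAD consensus at some late distal sites lay in a stretch that matches the end of the Alu repeat, the most numerous mobile element of the human genome. This context, the TEAD consensus with the 4 bases before and the 3 bases after it, was counted in all windows after it had been seen at 1 of the strongest sites. The common Alu letters there differ from it by a C-to-T change that completes the TEAD consensus. The context with the consensus was found at 241 late distal sites, 6.06% (5.34 to 6.85) of those with TEAD, against 2.96% (2.42 to 3.59) of earlier-called sites with TEAD, and 2.23% (1.51 to 3.17) of regular positions with TEAD. Over all windows the shares were 1.84%, 1.26% and 0.128%. The unchanged Alu context, without the consensus, was found in 219 late distal windows (1.68%, 1.46 to 1.91), 51 earlier-called windows (0.638%) and 489 regular positions (2.09%, 1.91 to 2.28). The late distal sites with the changed context had a median fold enrichment of 7.90.

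At least 1 of the 6 stretches of 32 bp around the summit occurred again in hg38 at 2427 late distal sites (18.6%, 17.9 to 19.2) and at 12.7% (11.9 to 13.4) of earlier-called sites. These late distal sites held TEAD in 33.2% and AP-1 in 17.2%, with a median fold enrichment of 6.08. All 6 stretches recurred at 78 late distal sites (0.597%) and 0.338% of earlier-called sites. How the authors placed reads that match several places is not given in the sources used here.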
